A study of Mus musculus with 56 samples.

Results

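The cytosolic ribosome is built from ribosomal RNA and a fixed set of proteins, named Rpl in the large (60S) subunit and Rps in the small (40S) subunit. The genes described here are those whose platform symbol is Rpl or Rps followed by a digit, Rplp0, Rplp1, Rplp2 or Rpsa, without the Rps6k kinase genes (3 left out) and without mitochondrial ribosomal proteins. The rule found 30 of the 6795 named genes, measured by 31 probes, 17 of the large and 13 of the small subunit. Of these, 25 were standard protein genes and 3 are annotated as pseudogenes in RefSeq (Rpl10a-ps2, Rps19-ps3 and Rps4l). The other 2, Rpl7l1 and Rpl39l, are protein-coding genes named after another gene. They are called gene copies here, and this class and the subunit were assigned by name alone. A probe for a copy or a pseudogene may also bind RNA of the gene it resembles, so the identity of these 5 signals is uncertain. A further 14 probes carry a ribosomal protein symbol beside another gene's symbol and were kept apart. Rps6 was the only gene with 2 probes.

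The cells were keratinocytes, which build the outer layer of skin, taken from newborn mice. Each 2-colour array set RNA of cells given TGF-β1 at 1 ng/ml against that of their untreated counterparts. Ras keratinocytes of strain Balb/c had been transduced with a retrovirus that carries Ha-ras and cannot replicate, and they had 6, 7, 6 and 4 arrays at 1, 6, 24 and 48 h. Balb/c primary keratinocytes had 6, 7, 6 and 3 arrays at the same times. Smad3 KO and Smad3 WT cells (strain C57B1/SVJ, 48 h) had 1 array for each genotype in ras and in primary cells. A further 7 arrays, with treated RNA in Cy3 in place of Cy5, are given apart because whether their sign had been turned is not given in the sources used here. The arrays of a group may be repeat hybridisations of the same cultures, so p-values may measure technical spread only. Values are log2 ratios of treated over untreated RNA, centred on each array's median. The base 2 is inferred from their size, and the direction is likely from the channel order.

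Ribosomal protein genes are among the most highly expressed genes of growing cells, and their products are needed in fixed proportions for ribosome assembly. In mammals many of their mRNAs begin with a C followed by a run of pyrimidines (C or T in the DNA), the 5′ terminal oligopyrimidine or TOP tract, through which the mTOR pathway controls their translation. TGF-β arrests the growth of keratinocytes, and a ras oncogene changes how they respond to it. The arrays report mRNA ratios only, so they show neither absolute levels nor translation.

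The sequences around the annotated transcription start show how such a tract looks in the 6 matched genes that carry it there. Beside them stand 4 of the 15 matched genes that do not. These 4 were the matched genes that followed the other ribosomal protein genes least across arrays (correlations of -0.0261 to 0.445). A link between the tract and that correlation was not tested. Each window runs from 10 bases before the start to the first 20 transcribed bases (RefSeq, build GRCm38.p6), and capitals mark the unbroken pyrimidine run at the start, where it opens with C and at least 4 further pyrimidines.
Rps6: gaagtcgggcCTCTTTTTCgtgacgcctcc
Rpl35: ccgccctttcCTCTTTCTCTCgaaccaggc
Rpl28: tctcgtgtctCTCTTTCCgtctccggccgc
Rpl35a: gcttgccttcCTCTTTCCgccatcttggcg
Rplp2: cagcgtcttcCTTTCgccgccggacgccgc
Rps15a: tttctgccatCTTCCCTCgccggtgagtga
Rps13: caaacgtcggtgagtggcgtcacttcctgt
Rpl13: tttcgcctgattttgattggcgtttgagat
Rpl7l1: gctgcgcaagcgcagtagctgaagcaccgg
Rpl39l: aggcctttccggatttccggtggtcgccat
The first 6 hold the tract and the last 4 do not. The tract was also missing at the annotated start of genes that followed the others closely across arrays, such as Rpl36a and Rps23. Rpl13a, another such gene, has a pyrimidine run that opens with C a few bases after its annotated start, which the rule did not count. Positions of the printed windows are chr4:86857348-86857377 on the minus strand for Rps6, chr2:39005112-39005141 on the minus strand for Rpl35, chr7:4792955-4792984 on the plus strand for Rpl28, and chr16:33056472-33056501 on the plus strand for Rpl35a. Rplp2 lies at chr7:141447641-141447670 (plus), Rps15a at chr7:118116128-118116157 (minus), Rps13 at chr7:116334171-116334200 (minus), Rpl13 at chr8:123102340-123102369 (plus), Rpl7l1 at chr17:46782637-46782666 (minus) and Rpl39l at chr16:10170218-10170247 (plus).

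Promoters matched 21 of the 30 genes, and where a gene has several annotated starts a match at any of them was counted. A C with at least 4 further pyrimidines exactly at the start was found in 6 of these 21 (28.6%), against 3.01% of all 27025 genes with a promoter. Further letters were searched on both strands from 250 bases before to 50 after the start. CCGGAAG was present in 9 of 21 (42.9%), against 9.93% of all genes, and AAGATGGC in 4 of 21 (19.0%), against 3.19%. TATAAA was present in 1 of 21 (4.76%, Rpl36a), against 15.7% of all genes. These matches are letters in the windows and not shown sites, and other annotated starts of the same gene can lie a few bases away.

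**Figure D1:**
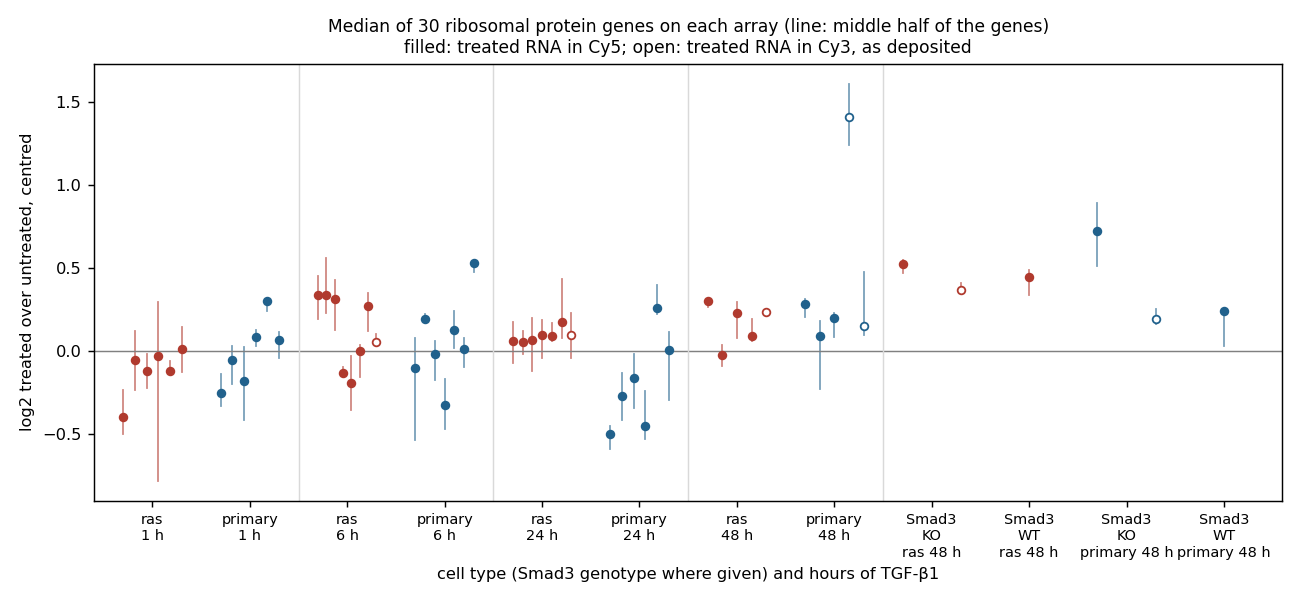
Median log2 ratio of the 30 ribosomal protein genes on each of the 56 arrays (points), with lines spanning the middle 50% of the genes, by cell type and hours of TGF-β1; filled points have treated RNA in Cy5, open points in Cy3 as deposited. All 6 filled ras points at 24 h lie between 0.06 and 0.17, while the primary points at 24 h run from -0.50 to 0.26.

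The responses of the ribosomal protein genes were small and mostly shared. The median over the 30 genes lay above 0 on 26 of the 45 Balb/c arrays with treated RNA in Cy5. In ras cells the array medians had a lowest, middle and highest value of -0.40, -0.09 and 0.01 at 1 h, and 5 of 6 lay below 0. At 6 h they were -0.20, 0.27 and 0.34, with 4 of 7 above 0. At 24 h they were 0.06, 0.08 and 0.17, all 6 above 0, and at 48 h the 4 arrays gave 0.30, -0.03, 0.23 and 0.09. In primary cells the lowest, middle and highest medians were -0.25, 0.01 and 0.30 at 1 h and -0.33, 0.01 and 0.53 at 6 h, on both sides of 0. At 24 h they were -0.50, -0.22 and 0.26, with 4 of 6 below 0. At 48 h the 3 arrays gave 0.28, 0.09 and 0.20. Arrays of ras and primary cells overlapped at each of the 4 times.

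Single ribosomal protein genes were tested with limma over all 8905 features of the table. In ras cells 0 of 30 genes passed an adjusted p of 0.05 at 1 h, 6 h, 24 h and 48 h, where 0.0786%, 1.73%, 10.5% and 3.5% of all features passed. In primary cells 0 of 30 passed at 1 h, 6 h and 24 h and 1 of 30, Rps4l, at 48 h, where 0.0112%, 0.0112%, 1.36% and 8.6% of all features passed. At an unadjusted p under 0.05 the counts were 4, 1, 3 and 0 of 30 in ras cells, against 7.03%, 11.9%, 24.6% and 18.8% of all features. In primary cells these counts were 0, 0, 8 and 1 of 30, against 5.37%, 9.42%, 10.1% and 22.0%. The 8 genes of primary cells at 24 h made up 26.7% of the 30, the highest share among the 8 responses. All 8 were below 0, where 6.6% of all features were lower at that threshold.

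The fitted responses leaned to 1 side within a group although few were large. In ras cells at 1, 6, 24 and 48 h, 7, 28, 25 and 29 of the 30 genes had a fitted value above 0, where 50.2%, 49.9%, 50.9% and 47.4% of all features did. The medians over the genes were -0.13, 0.13, 0.11 and 0.15. In primary cells 11, 17, 1 and 23 of 30 lay above 0, where 45.9%, 47.9%, 46.1% and 46.4% of all features did, with medians of -0.03, 0.08, -0.20 and 0.18. The medians of all features lay between -0.05 and 0.01 in these 8 responses. Since the 30 genes move together on each array, such counts weigh the arrays and not 30 separate observations.

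**Figure D2:**
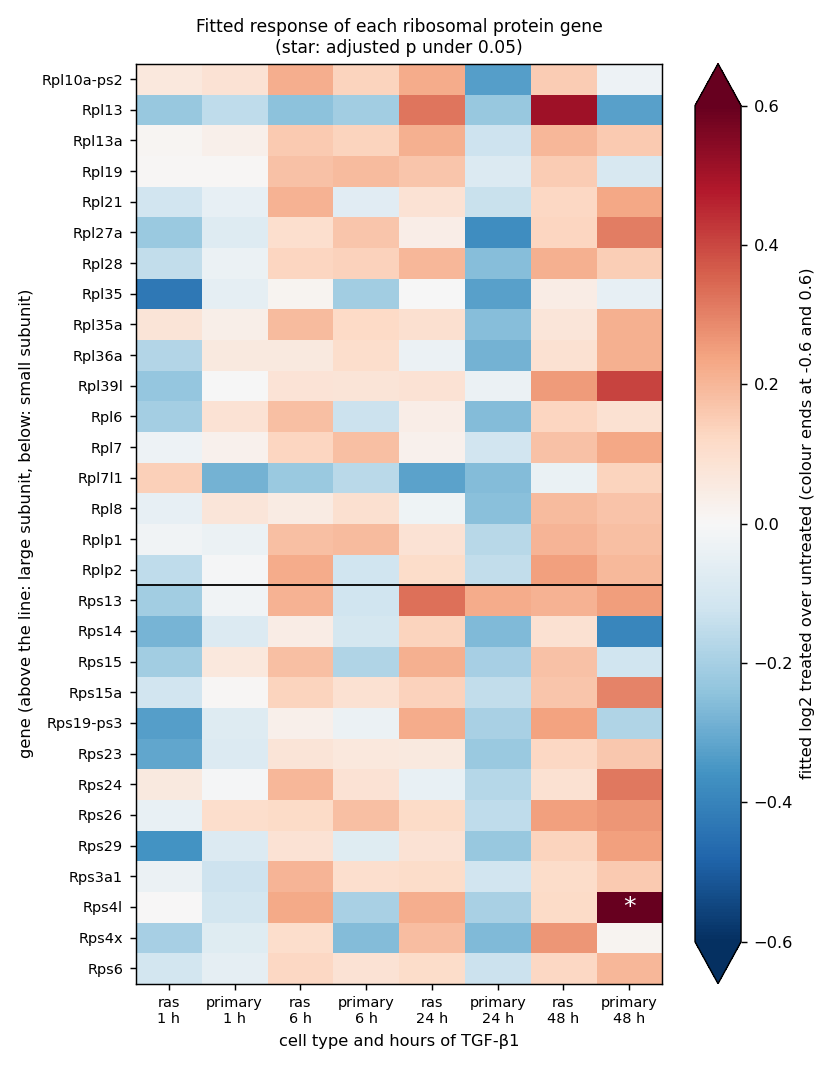
Fitted log2 response of each of the 30 ribosomal protein genes (rows, large subunit above the line) in ras and primary cells at 4 times (columns); a star marks an adjusted p under 0.05. The primary 24 h column is below 0 in 29 of 30 rows and the ras 48 h column above 0 in 29 of 30, and the star stands at Rps4l in primary cells at 48 h, whose value of 1.53 lies beyond the colour scale.

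Among the large subunit genes the lowest fitted value was that of Rpl35, a protein beside the exit tunnel for the growing chain, in ras cells at 1 h. Its ratios there had a lowest, middle and highest value of -1.17, -0.33 and 0.03 over 6 arrays, and the fit gave -0.43 (SE 0.16, limma adjusted p = 0.55). In primary cells Rpl35 stood at -0.33 (SE 0.16) at 24 h. Rpl27a was the lowest gene of primary cells at 24 h, with -0.94, -0.40 and 0.23 over 6 arrays and a fit of -0.37 (SE 0.12, SD 0.48, limma adjusted p = 0.14). Of its 6 arrays 4 were below 0, and without replicate 5 it was called lower, at -0.49 (adjusted p = 0.0337). Rpl13a was above 0 on all 6 ras arrays at 24 h (0.03 to 0.38) and on all 4 at 48 h, with a fit of 0.22 (SE 0.10) at 24 h. Rpl19, whose protein helps to bridge the subunits, was above 0 on all 7 primary arrays at 6 h (0.04 to 0.55, fit 0.19, SE 0.10) and on all 6 ras arrays at 24 h (0.02 to 0.49, fit 0.16, SE 0.10). The acidic stalk genes Rplp1 and Rplp2, whose proteins recruit elongation factors, stayed between -0.15 and 0.24 in the ras responses and between -0.17 and 0.19 in the primary responses.

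Among the small subunit genes, Rps29 and Rps23 were the only 2 of the 30 below 0 on all 6 ras arrays at 1 h, where 2.93% of all features were. Rps29, a zinc-binding protein of the subunit's head, ranged from -0.92 to -0.11 there, with a fit of -0.36 (SE 0.13, SD 0.31, limma adjusted p = 0.55). At 24 h the same gene lay between 0.003 and 0.204 on the 6 ras arrays, all above 0 (fit 0.09, SE 0.13). Rps23, a protein of the decoding centre, ranged from -0.59 to -0.04 at 1 h with a fit of -0.31 (SE 0.10, adjusted p = 0.50). Rps26, which lies near the exit of the mRNA channel, was above 0 on all 6 primary arrays at 1 h (0.02 to 0.26, fit 0.11, SE 0.12), where 2.25% of all features were. Rps6, the substrate of the S6 kinases, followed the other genes most closely, and its fitted responses ran from -0.11 to 0.12 in ras and from -0.13 to 0.20 in primary cells. Its 2 probes correlated at 0.742 over 49 arrays, with a median gap of 0.06 and a largest gap of 0.85 on ras 1 h replicate 4.

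Some genes lay on the same side of 0 on every array of a group. At 24 h in ras cells 8 genes were above 0 on all 6 arrays and 0 below, against 5.57% and 6.12% of all features. The 8 were Rpl10a-ps2, Rpl13a, Rpl19, Rpl28, Rps13, Rps15a, Rps19-ps3 and Rps29. In primary cells at 24 h 0 genes were above and 0 below 0 on all 6 arrays, where 3.66% and 3.86% of all features were. In ras cells at 48 h 7 genes were above 0 on all 4 arrays, against 14.2% of all features, and in primary cells at 48 h 16 were above 0 on all 3, against 24.3%.

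Which direction TGF-β1 gives in ras cells relative to primary cells at the same time is the comparison that the parallel time courses allow. At 24 h 29 of 30 genes had a fitted ras value above the primary one, where 53.7% of all features did, and the median difference was 0.29, against 0.03 over all features. A difference passed an adjusted p of 0.05 for 0 of 30 genes, where 0.0449% of all features passed, and an unadjusted p under 0.05 for 5 of 30, where 10.3% did. These 5 were Rpl10a-ps2 (0.55, SE 0.17), Rpl28 (0.46, SE 0.16), Rps19-ps3 (0.42, SE 0.17), Rpl27a (0.41, SE 0.17) and Rpl13a (0.34, SE 0.15), with a smallest limma adjusted p of 0.405. For 0 genes were all ras arrays above all primary arrays at 24 h, where 0.225% of all features had such a gap.

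Rpl28 shows the shape of this difference. At 24 h its 6 ras arrays had a lowest, middle and highest value of 0.09, 0.15 and 0.47. Its 6 primary arrays had -0.66, -0.39 and 0.34, of which replicates 1 to 4 lay between -0.66 and -0.35 and replicates 5 and 6 at 0.34 and 0.09. Primary replicate 5 lay inside the ras range, and replicates 1 to 4 lay below all 6 ras arrays. Replicate 6, at 0.086, was barely under the lowest ras array, at 0.091. The fit gave 0.20 (SE 0.11, SD 0.14) in ras and -0.26 (SE 0.11, SD 0.39) in primary cells.

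Blocks of arrays, runs of close experiment numbers in the labels, were also compared one by one. The ras minus primary difference of the array medians at 24 h was 0.40 and 0.44 in the blocks that hold primary replicates 1 to 4, and -0.17 and 0.17 in those of replicates 5 and 6, so it did not keep its sign within every block. With array weights 6 of 30 genes were called higher in ras than in primary cells at 24 h. Of all features 1.52% were called there in either direction. The same weights called 18 of 30 lower in primary cells at 24 h, against 9.38% of all features in either direction. With arrays scaled to 1 spread 6 of 30 were called lower in primary cells at 24 h, against 4.36% in either direction. Keratinocyte markers differed in the same direction: 8 of 8 measured had a ras minus primary value above 0 at 24 h, with a median of 0.32 and 0 called, and their part in the ribosomal protein difference was not tested. Their array medians ran from -0.13 to 0.28 in ras and from -0.49 to 0.17 in primary cells.

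At the other times the cell types differed less. The median ras minus primary value was -0.12 at 1 h (6 of 30 above 0, against 53.8% of all features), 0.05 at 6 h (20 of 30, against 53.7%) and -0.03 at 48 h (14 of 30, against 49.5%). A difference passed an adjusted p of 0.05 for 0 of 30 genes at each of these times, where 0.0%, 0.0% and 0.202% of all features passed. At an unadjusted p under 0.05 there were 1, 2 and 2 genes, against 4.17%, 4.59% and 6.67% of all features. At 1 h this was Rpl7l1, at 0.43 (SE 0.21), and at 6 h Rplp2 at 0.34 (SE 0.16) and Rps13 at 0.33 (SE 0.16). At 48 h they were Rpl13 at 0.83 (SE 0.41) and Rps4l at -1.41 (SE 0.60).

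Within ras cells the genes were higher at 24 h than at 1 h in 28 of 30 cases, where 48.4% of all features were, with a median difference of 0.23. Of the 30 genes 0 passed an adjusted p of 0.05, where 1.08% of all features did, and 8 (7 higher and 1 lower) had an unadjusted p under 0.05, where 17.0% did. The smallest adjusted p, 0.0978, belonged to Rps19-ps3 (0.55, SE 0.17) and Rps13 (0.54, SE 0.17). The lower gene was Rpl7l1, at -0.46 (SE 0.21). In primary cells 24 h was higher than 1 h in 3 of 30 genes, against 48.6% of all features, with a median difference of -0.15, 0 adjusted calls against 0.168% and 2 genes at an unadjusted p under 0.05 against 4.56%. In the 48 h minus 6 h contrast the medians were 0.03 in ras cells (20 of 30 above 0, against 48.0%) and 0.10 in primary cells (24 of 30, against 50.8%). Both had 0 adjusted calls, where 0.0337% of all features were called in ras and 2.74% in primary cells. Each had 1 gene at an unadjusted p under 0.05, Rpl13 in ras cells (0.76, SE 0.34), against 7.11% of all features, and Rps4l in primary cells (1.72, SE 0.54, adjusted p = 0.074), against 15.4%.

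**Figure D3:**
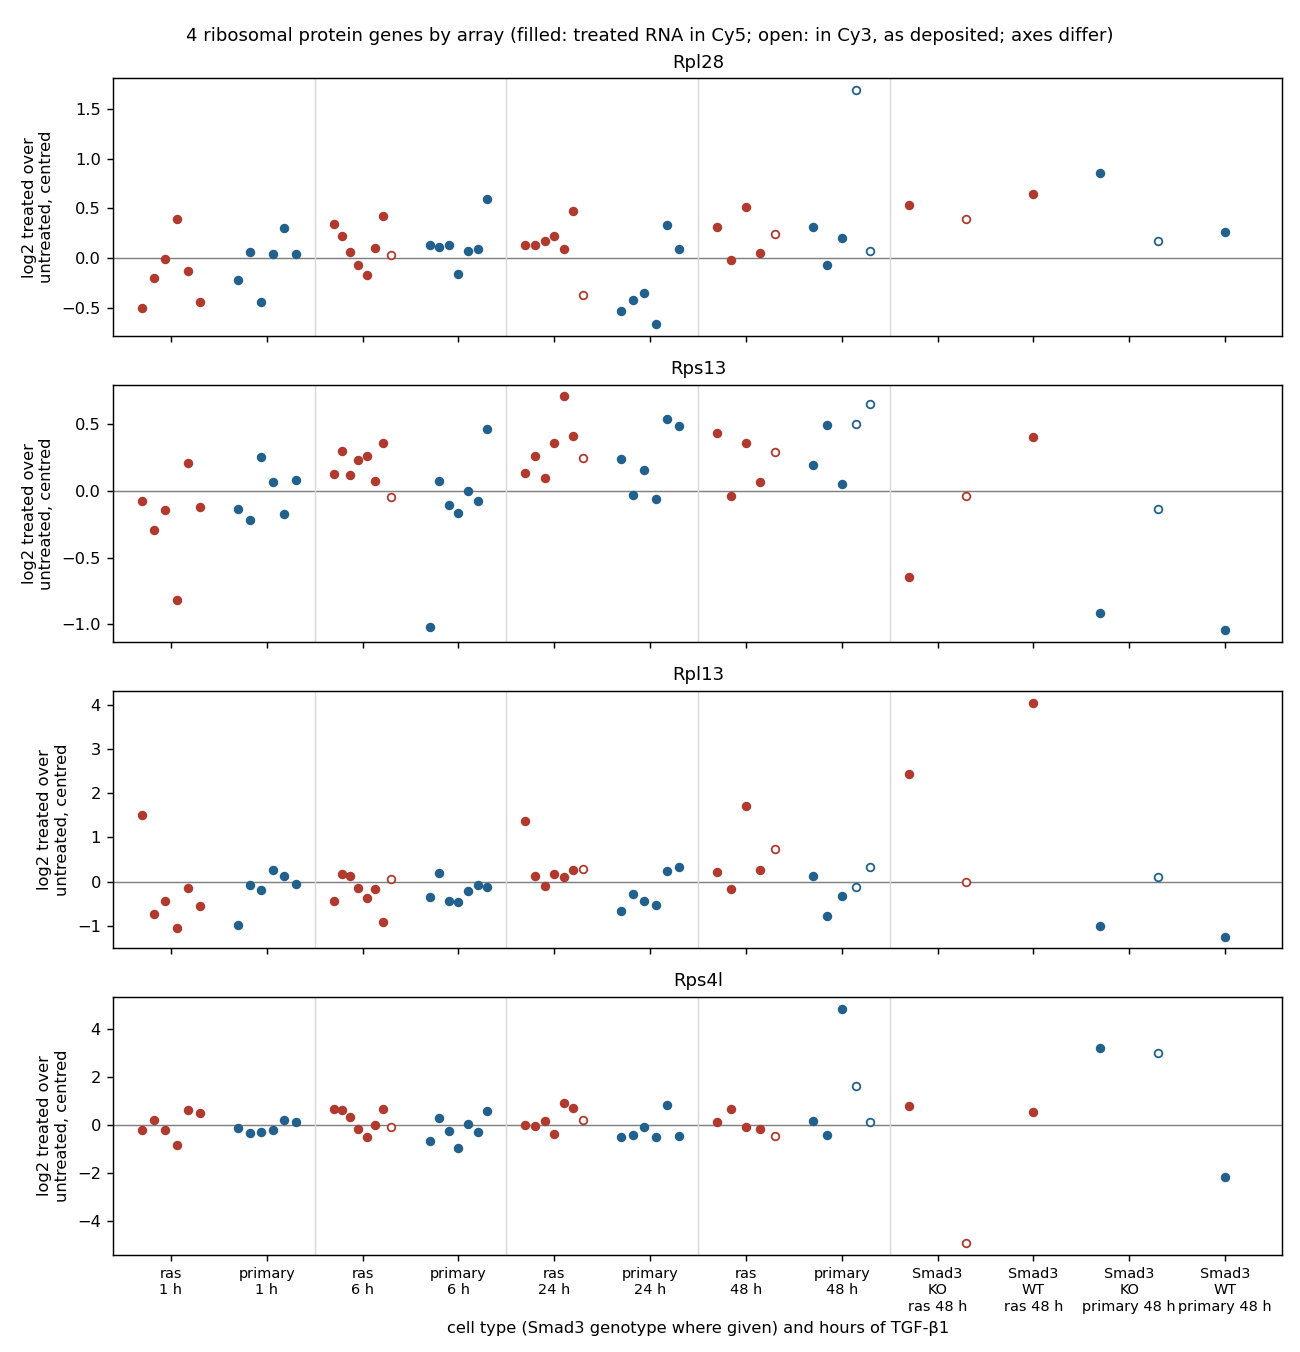
Log2 ratio of Rpl28, Rps13, Rpl13 and Rps4l on each of the 56 arrays by cell type, time and Smad3 genotype (filled: treated RNA in Cy5, open: in Cy3 as deposited; axes differ). Rps4l stays between -0.98 and 0.89 on the Balb/c arrays in Cy5 other than primary 48 h replicate 5 at 4.83, and Rpl13 has single high arrays in ras cells, up to 4.05.

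The only ribosomal protein gene called in a response was Rps4l, annotated as a transcribed pseudogene on chromosome 6 that resembles Rps4x. In ras cells at 48 h its 4 arrays gave 0.11, 0.64, -0.11 and -0.18, and in primary cells its 3 arrays gave 0.16, -0.41 and 4.83. A single primary array, replicate 5, was high, and the others lay on both sides of 0. The primary fit was 1.53 (SE 0.45, SD 2.87, n = 3, limma adjusted p = 0.0267), and without replicate 5 the value was -0.12 (adjusted p = 0.896). Rps4x, its X-linked protein-coding relative, stood at 0.27 in ras and 0.02 in primary cells at 48 h. Over 49 arrays Rps4l and Rps4x correlated at 0.563 and had the same sign on 39.

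Beside the positive values of primary cells at 48 h stand markers of other cell types. Of 9 measured fibroblast markers 3 rose there and 0 fell. Of 7 immune markers 3 rose and 1 fell, while 3 of 8 keratinocyte markers fell and 0 rose. In that response 8.6% of all features were called in either direction. The array medians of these lists ran from 0.11 to 1.00 for fibroblast, from -0.02 to 1.23 for immune and from -0.96 to -0.03 for keratinocyte markers. Fewer cells of a type and less RNA per cell cannot be told apart in bulk RNA, and the part of this in the ribosomal protein values was not tested. The array gives no level of a marker, so the presence of the labelled cell type was seen only through these ratios.

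Of the gene copies only Rpl7l1 could be set against the gene it resembles, since Rpl39 was not among the ribosomal protein genes found. Rpl7l1 correlated with Rpl7 at 0.26 over 49 arrays and had the same sign on 24, with a median gap of 0.35. It was below 0 on all 6 primary arrays at 1 h (-0.55 to -0.01, fit -0.29, SE 0.15), where 2.1% of all features were. In ras cells at 24 h its lowest, middle and highest values were -0.76, -0.42 and 0.53, and without replicate 3 it was called lower, at -0.49 (adjusted p = 0.029). With that array the fit was -0.32 (SE 0.15, adjusted p = 0.17). Rpl39l, a copy known in mouse for expression in the testis, ran from -1.50 on primary 1 h replicate 5 to 0.96 on primary 24 h replicate 5, with fits of -0.23 to 0.26 in ras and -0.04 to 0.41 in primary cells. The pseudogene signals Rpl10a-ps2 and Rps19-ps3 correlated with the median of the other genes at 0.692 and 0.711.

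Most of the genes moved together across arrays. Every gene was set against the median of the other 29 over 49 arrays, which share cells, dyes and processing, so the values are descriptions. The median correlation of the 30 was 0.773, and 25 of 30 exceeded 0.5. Among the 8875 other features the median correlation with the ribosomal protein median was -0.0233, and 8.42% exceeded 0.5. Rps6 (0.917), Rps15a (0.892) and Rpl36a (0.873) were the highest. The lowest were Rps13 (-0.0261), Rpl7l1 (0.238), Rpl13 (0.268), Rpl39l (0.445) and Rps4l (0.46), 3 of which are copies or pseudogene signals and 2 standard genes.

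Rps13 was the standard gene with the least agreement with the rest over the 49 arrays, which include those of the Smad3 comparison. There it was -1.044 on the primary WT, -0.915 on the primary KO and -0.644 on the ras KO array. The medians of the 30 genes on these arrays were 0.24, 0.72 and 0.52. On the ras WT array it was 0.408, beside a median of 0.45. Its correlation without these arrays was not computed. In ras cells it lay above 0 on all 7 arrays at 6 h (0.08 to 0.36), where 4.27% of all features did, and on all 6 at 24 h (0.10 to 0.71). Its fit at 24 h was 0.33 (SE 0.12, SD 0.22, limma adjusted p = 0.0675), a 1.26-fold ratio. In primary cells at 24 h it stood at 0.22 (SE 0.12), the single one of the 30 genes above 0. Rpl13 was spread widely: on ras arrays it reached 1.503 at 1 h, 1.37 at 24 h and 1.71 at 48 h, each on a single array, with the other arrays of these groups between -1.04 and 0.26.

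**Figure D4:**
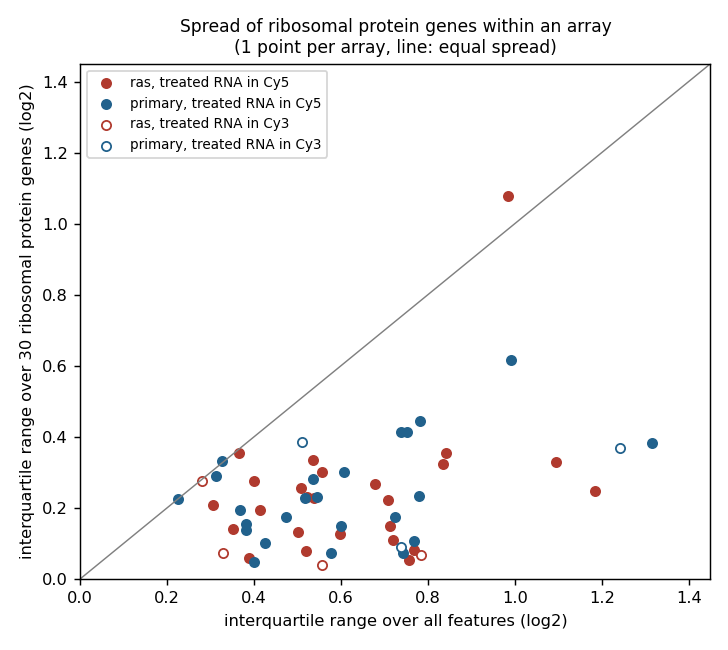
Interquartile range (log2) of the 30 ribosomal protein genes (vertical) against that of all 8905 features (horizontal), 1 point per array, for ras and primary cells and both dye orientations. On 53 of 56 arrays the point lies below the line of equal spread, and the point farthest above it is ras 1 h replicate 4 at 109%.

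The same closeness appears within an array. The interquartile range of the ribosomal protein genes was smaller than that of all features on 53 of 56 arrays, with a median of 39.0% of it and a range of 6.83% to 109%. For translation elongation and other TOP genes the median was 53.7%, for mitochondrial ribosomal proteins 69.0% and for ribosome biogenesis genes 78.0%. The 3 arrays at or above the spread of all features were ras 1 h replicate 4 (109%), primary 24 h replicate 3 (101%) and primary 6 h replicate 5 (100%). Spot brightness was not used here. The medians of the large and the small subunit correlated at 0.863 over 49 arrays and had the same sign on 41. Their largest gap was 0.79, on ras 1 h replicate 4, where the large subunit stood at 0.19 and the small at -0.59.

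**Figure D5:**
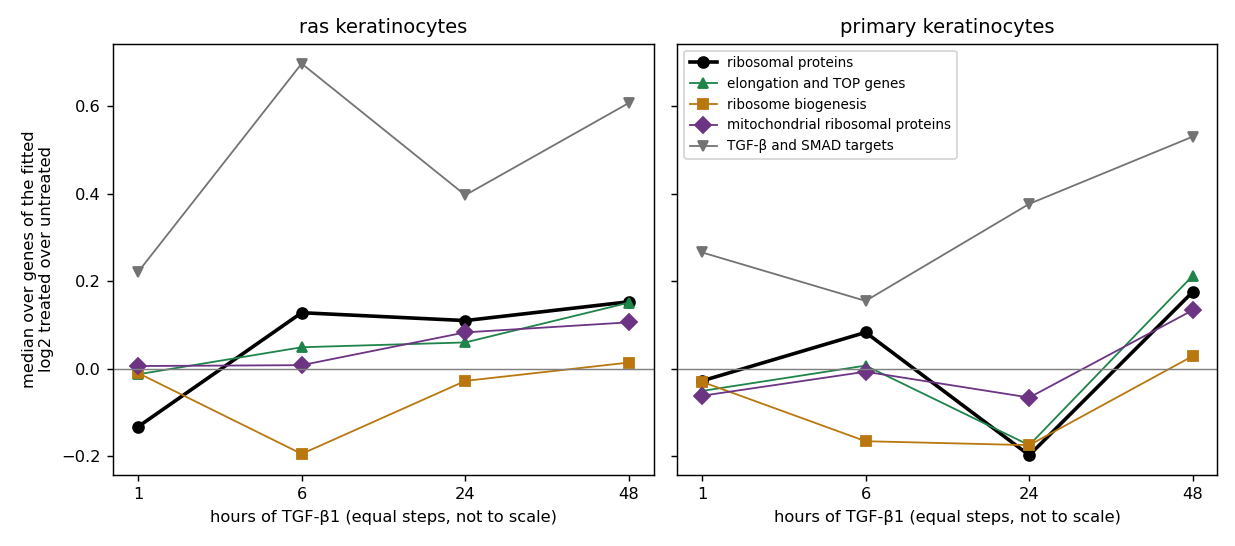
Median fitted log2 response of the ribosomal protein genes and of 4 other gene lists at 1, 6, 24 and 48 h in ras (left) and primary cells (right). In ras cells at 6 h the ribosomal proteins stand at 0.13 and ribosome biogenesis at -0.20, and in primary cells at 24 h the values are -0.20 and -0.18.

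Neighbouring parts of the translation machinery gave array medians that followed those of the ribosomal proteins to different degrees. Over 49 arrays the correlation was 0.894 for 12 translation elongation and other TOP genes, 0.744 for 32 mitochondrial ribosomal proteins and 0.448 for 29 ribosome biogenesis genes. In ras cells at 6 h 3 of 29 biogenesis genes fell and 0 rose, where 1.73% of all features were called in either direction. Myc, a transcription factor that drives ribosome production, fell by 1.18 (SE 0.32, limma adjusted p = 0.0404). The box C/D snoRNP gene Nop58 fell by 0.72 (SE 0.18, adjusted p = 0.0236). Wdr12, needed for the large subunit, fell by 0.51 (SE 0.14, adjusted p = 0.0348). In the same response 28 of 30 ribosomal protein genes had values above 0 and 27 of 29 biogenesis genes values below 0. Whether the lists differ there was not tested. In primary cells at 24 h Fbl, the snoRNA-guided rRNA methyltransferase fibrillarin, fell by 0.59 (SE 0.14, adjusted p = 0.0206), the single call among the 29. Of the 12 elongation and TOP genes Hnrnpa1 fell in primary cells at 24 h (-0.49, SE 0.13, adjusted p = 0.0457), Pabpc1, the poly(A)-binding protein gene, fell in primary cells at 48 h (-1.76, SE 0.50, adjusted p = 0.0203), and Eef2, elongation factor 2, rose in ras cells at 48 h by 0.55 (SE 0.16, adjusted p = 0.045). The share of all features called was 1.36% in primary cells at 24 h. At 48 h it was 8.6% in primary and 3.5% in ras cells. Of the 32 mitochondrial ribosomal proteins 0 were called in any of the 8 responses.

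The Smad3 comparison asks whether the 48 h response needs this SMAD transcription factor. With 1 array per genotype and cell type it rests on the spread of the other groups. The ribosomal protein median was 0.52 on the ras and 0.72 on the primary KO array, against 0.45 on the ras and 0.24 on the primary WT array. The Cy3 arrays of KO cells, as deposited, had medians of 0.37 in ras and 0.19 in primary cells. Both lay below the Cy5 WT array of the same cell type. No WT array had treated RNA in Cy3, so dye orientation and genotype cannot be told apart in that comparison. Fitted KO minus WT values were above 0 for 27 of 30 genes, where 52.2% of all features were, with a median of 0.34 against 0.02. That median was 0.07 (0.074) with the Cy3 arrays as deposited and a dye term, and 0.10 (0.101) with arrays scaled to 1 spread. An adjusted p of 0.05 was passed by 0 of 30, where 1.74% of all features passed, and an unadjusted p under 0.05 was reached by 4 of 30, where 6.72% did. In ras cells alone the median difference was 0.09 and in primary cells alone 0.56. Smad3 itself stood at -1.17 (SE 1.20, adjusted p = 1.0), which does not check the labels, since both RNAs on a KO array come from KO cells.

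The 4 genes were Rps4l, Rps15, Rps26 and Rps15a. Rps4l was 0.79 on the ras and 3.18 on the primary KO array, and 0.55 on the ras and -2.17 on the primary WT array, so the fitted difference of 2.80 (SE 0.79, limma adjusted p = 0.0542) came mainly from the primary pair. On the Cy3 arrays of KO cells, as deposited, Rps4l was -4.92 in ras and 2.98 in primary cells, so the ras KO arrays of opposite dye had opposite signs. Rps15, a protein of the subunit's head, was 0.72 and 1.34 on the ras and primary KO arrays, and 0.38 and -0.07 on the ras and primary WT arrays, with a difference of 0.88 (SE 0.35). Rpl13 ran the other way at -0.69 (SE 0.53), with 2.42 and -1.0 on the ras and primary KO arrays and 4.05 and -1.24 on the ras and primary WT arrays. Of 8 keratinocyte markers 7 had a KO minus WT value above 0, with a median of 0.29, and their part in the ribosomal protein values was not tested.

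The 7 arrays with treated RNA in Cy3 bear on the sign of the ribosomal protein values. As deposited, the median of the 30 genes was above 0 on all 7: 0.05 on ras 6 h, 0.10 on ras 24 h, 0.24 on ras 48 h, 1.41 and 0.15 on primary 48 h, 0.37 on KO ras and 0.19 on KO primary cells. The median of 19 TGF-β and SMAD target genes on the 5 Balb/c arrays among them was -0.50, -0.16, -0.08, 0.12 and -0.29 in the same order. In the other arrays of the same groups that median was 0.70, 0.40, 0.61 and 0.53 (the last for both primary arrays). The target genes thus had the opposite sign on 4 of these 5 arrays, and the ribosomal protein genes did not. On the KO arrays the targets stood at 0.20 in ras and 0.16 in primary cells, against 0.17 and 0.57 on the Cy5 array of the same group.

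With their sign turned and a dye term in the fit, the median over the genes was below 0 in all 8 responses. It ran from -0.42 at 1 h to -0.10 at 48 h in ras cells. In primary cells it ran from -0.51 at 24 h to -0.23 at 6 h. The dye term was estimated only from groups with both orientations, among them primary 48 h with its replicate 3. Ras cells at 1 h and primary cells at 1, 6 and 24 h had no Cy3 array. Their medians thus carry over the dye term of the other groups. The KO arrays were turned too, although their target genes had not changed sign. In this setting 3 of 30 genes were called lower in ras cells at 1 h, against 0.988% of all features called in either direction. In primary cells the counts were 7 at 24 h, against 3.66%, and 5 at 48 h, against 8.02%. As deposited with a dye term, 11 of 30 were called higher in primary cells at 48 h, against 8.15% in either direction. Among the Cy3 arrays there, replicate 3 had a median of 1.41, while the other 55 arrays lay between -0.50 and 0.72. Its part in these calls was not tested. A preference of ribosomal protein probes for Cy5 cannot be told apart from a response on arrays of 1 orientation, while it cancels in ras minus primary and time differences where it is constant.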

How the data were processed

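The values deposited by the authors are ratios of the 2 channels on a log scale, used as log2, with the base inferred from their size. The table covers 9596 probes and 56 arrays, and 0 values are missing. How spots were scanned, filtered and normalized before deposit is not given in the sources. Array medians ran from -0.146 to 0.02 and SDs from 0.194 to 1.81. Signal strength is unknown, so the number of arrays limits the precision. Arrays were centred on their median and probes of 1 symbol averaged (8905 features), with names from the platform annotation updated through RefSeq. All groups of the 49 Cy5 arrays were fitted together with limma 3.58.1 in R 4.3.3 (lmFit, eBayes; two-sided, Benjamini-Hochberg over 8905 features, called under 0.05). The fit was tested on simulated data.

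The members and lists were chosen with earlier results of these data known. Values are given for members called in any comparison, the extremes of each response, copies, members with several probes and those of 1 sign in a group. Rps15 in the Smad3 comparison was chosen after its values were seen. Alternatives changed centring, scaling, weights, dye handling, probe summary, blocks, extreme values, members and single arrays. Same-numbered replicates were checked for pairing: 5 of 19 pairs correlated above 0.1 (range -0.232 to 0.39), so the numbers were not taken as pairs.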

Additional observations from a re-analysis of the deposited data

Results flagged for a closer look

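Of 119 sets of arrays checked for a value far from the rest (the array medians and 16 genes, in groups of 4 to 7 arrays), 13 held one. Chance gives about 1 in 20 for independent sets. The genes move together and were chosen partly for extreme values, so that rate is no measure here. The ribosomal protein median was -0.40 on ras 1 h replicate 1, with the other 5 arrays between -0.12 and 0.01, and 0.17 on ras 24 h replicate 7, with the others between 0.06 and 0.10. On that ras 24 h array Rpl28 was 0.47, above the others by more than their range. Rpl13 stood apart on replicate 1 of 3 groups, at 1.503 in ras cells at 1 h, 1.37 in ras cells at 24 h and -0.99 in primary cells at 1 h. Rpl10a-ps2 was 0.67 on ras 1 h replicate 4. In primary cells at 6 h Rps13 (-1.02) and Rpl35 (-1.37) were low on replicate 1, and Rpl27a (0.78) and Rpl28 (0.60) were high on replicate 7. In primary cells at 24 h Rps4l (0.83) and Rps19-ps3 (0.57) were high on replicate 5, the array whose ribosomal protein median was the highest of its group.

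Rps29 in ras cells was above 0 on all 6 arrays at 24 h and below 0 on all 6 at 1 h, a difference of 0.45 (SE 0.19) that limma did not call (adjusted p = 0.217, unadjusted p = 0.0217).

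Outside the 49 arrays of the fit, primary 48 h replicate 3, with treated RNA in Cy3, had a ribosomal protein median of 1.41, while the other 55 arrays lay between -0.50 and 0.72. Of its 30 genes 29 were above 0.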

How the results depend on the processing

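Of 374 counts of called ribosomal protein genes under an alternative, 345 stayed within 1.5 times the main count. That main count was 0 except in primary cells at 48 h (1), so this means mostly that 0 stayed 0. Many alternatives left out a single array of the joint fit. Of 374 medians 353 moved by less than the SD between arrays. Where a single array was left out this was nearly sure in advance, since 1 array moves a group mean by less than that SD. The count is thus no measure of how stable the medians are. The cause of the changes below was not tested. Percentages in brackets below are shares of all features called in either direction. With array weights 2 of 30 genes were called higher in primary cells at 6 h (0.18% of all features called), 18 lower in primary cells at 24 h (9.38%) and 6 higher in ras minus primary at 24 h (1.52%). The same weights called 4 in ras cells at 6 h (13.5%), 2 in ras cells at 24 h (6.31%), 2 in primary 24 h minus 1 h (0.865%), 3 in ras 24 h minus 1 h (5.99%) and 1 in Smad3 KO minus WT (4.02%). Scaling arrays to 1 spread called 6 lower in primary cells at 24 h (4.36%) and gave a Smad3 median of 0.10. With the 7 Cy3 arrays as deposited and a dye term, primary cells at 48 h had 11 called (8.15%) and a median of 0.42. The other medians were -0.22 in ras minus primary at 48 h, 0.33 in primary 48 h minus 6 h and 0.07 (0.074) in Smad3. Without the dye term these were 10 called (8.25%), 0.41, -0.24, 0.37 and 0.14 (0.135). Both settings include primary 48 h replicate 3, the Cy3 array with a median of 1.41. With the Cy3 arrays turned and a dye term, medians at 1, 6, 24 and 48 h were -0.42, -0.11, -0.14 and -0.10 (-0.095) in ras and -0.31, -0.23, -0.51 and -0.26 in primary cells, 0.18 in ras minus primary at 48 h and 0.12 in Smad3. That setting called 3 in ras cells at 1 h (0.988%), and 7 (3.66%) and 5 (8.02%) in primary cells at 24 and 48 h. Rps4l in primary cells at 48 h was -0.12 with values beyond 4 set to missing (adjusted p = 0.85) and -0.12 without replicate 5 (adjusted p = 0.896). The primary 48 h count was 0 in both of these settings (8.97% and 8.57%). It was also 0 with experiment blocks (8.24%), with own arrays alone (0.0%) and over members that are neither pseudogene nor copy (8.6%). Without replicate 1 Rps4l was 2.21 and without replicate 2 it was 2.49 (2.494), and it was called in each. Smad3 had 1 call without the 2 widest arrays (2.43%), with values beyond 4 missing (1.1%) and with experiment blocks (2.26%). It also had 1 with the probes of several symbols added (1.74%), and ras 24 h minus 1 h had 1 with experiment blocks (2.94%). The last 2 choices of members were made after seeing the data.

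Leaving out single arrays gave 0 to 1 calls (in brackets: share of all features called in either direction). Primary cells at 24 h had 1 without replicate 5 (1.47%), and ras cells at 24 h had 1 without replicate 3 (10.9%). Primary cells at 48 h had 0 without replicate 5 (8.57%) and 1 otherwise. Primary 48 h minus 6 h had 1 without 48 h replicate 1 (2.12%) or replicate 2 (1.47%). The other comparisons had 0 throughout, except Smad3, where leaving out 1 cell type leaves 1 array per genotype, so only medians are given. Medians then ran from 0.09 (0.089) to 0.56 for Smad3 and from 0.22 (0.215) to 0.40 for ras minus primary at 24 h. They ran from -0.17 to -0.06 in ras cells at 1 h, from -0.31 to -0.13 in primary cells at 24 h and from -0.16 to -0.05 (-0.048) in ras minus primary at 1 h. The sign changed in primary cells at 1 h (-0.085 to 0.018) and 6 h (-0.006 to 0.136), in ras minus primary at 6 h (-0.011 to 0.127) and 48 h (-0.067 to 0.036), and in ras 48 h minus 6 h (-0.022 to 0.085). Primary 24 h minus 1 h ran from -0.26 to -0.087 and primary 48 h minus 6 h from 0.05 to 0.181. The replicate block changed no call: 1 gene in primary cells at 48 h and 0 in the other comparisons. The number of arrays limits all of these values, and signal over background is unknown.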
